A study of Mus musculus with 12 samples.

Results

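The 10 imprinted genes described here lie outside the Dlk1-Dio3 cluster and were followed across drug treatment, time and tumour in mouse medulloblastoma cells. They are Igf2, H19, Peg3, Peg10, Mest, Plagl1, Grb10, Ndn, Magel2 and Phlda2. Members were found by gene symbol in the array annotation, and the probe set with the highest mean over the 12 arrays stood for the gene. This gave a value for 9 of the 10 genes, of 22180 genes with a probe set of their own. The only H19 probe set also names Mir675, so that H19 had no value of its own. All 9 lay above the 25th percentile of probe sets on all 12 arrays and were tested among 18652 genes.

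The cells were MP cells, which model Group 3 medulloblastoma driven by MYC, a childhood tumour of the cerebellum, in mice. They were isolated from the cerebella of NSG mice, dissociated and plated in neural stem cell medium. NSG is an immunodeficient host that lacks mature lymphocytes and keeps its own stroma, vessels and myeloid cells, so that a dissociated tumour can hold some host cells. Cultures received 25 nM LBH589 (panobinostat, a histone deacetylase inhibitor) for 12 h or for 6 h, or 0.00025% DMSO, the control, for 12 h or for 6 h. Each of these 4 groups held 3 cultures, from the tumours MP525, MP567 and MP570, so that each tumour gave 4 arrays. Each array measured total RNA, and values are log2 probe set values, on which a difference of 1 is a doubling. Changes are LBH589 minus DMSO. Since each tumour gave 1 culture per group, the spread within a group is that between tumours.

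Imprinted genes are expressed from a single parental copy, chosen by DNA methylation that is set in the germ line and kept in the embryo. Many act on growth: paternally expressed genes such as Igf2 mostly promote it, and maternally expressed genes such as Phlda2 mostly restrain it. In mice several of them, Igf2, Mest, Peg3, Plagl1, Grb10 and the IGF2 scavenger Igf2r among them, are high in the embryo and fall after birth. The arrays do not separate the parental copies.

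The labelled cell type was checked against marker lists, on whose probe sets the percentile is a rough guide to the level. The mean over the 12 arrays of the 14 cerebellar and neural progenitor genes lay between 7.26 (Mycn, the 43.2nd percentile of all genes) and 11.57 (Zic1, the 96.5th), with Sox11 at the 90.8th, Nes at the 64.4th, Sox2 at the 57.0th and Barhl1 at the 46.9th. Atoh1 was at the 71.8th and Myc at the 64.3rd. These means hide differences between tumours. Atoh1 averaged 11.02 in MP525, 8.43 in MP567 and 7.92 in MP570, while Pax6 ran the other way, at 10.13, 10.80 and 10.92. The 8 mature neuron genes spanned a wider range, with Snap25 at the 97.2nd percentile, Map2 at the 93.0th, Slc17a7 at the 76.8th and Gabra6 at the 9.9th. Astrocyte genes lay between the 24.9th (S100b) and the 81.8th (Aldoc), and myeloid genes between the 21.2nd (Ptprc) and the 65.8th (Fcer1g). The ranges of the lists overlapped, so that these levels do not tell progenitors from mature neurons. The summed level of the 14 progenitor genes was 13.56 to 13.74 in LBH589 and 13.64 to 14.07 in DMSO at 12 h, and 13.48 to 13.61 in LBH589 and 13.59 to 14.11 in DMSO at 6 h. With LBH589, 1 of these 14 rose and 3 fell at 12 h, where 18.2% of all tested genes were called (adjusted p under 0.05 in limma), and 1 rose and 2 fell at 6 h, where 15.8% were. Within tumours, with the tumour as a replicate block, 3 rose and 4 fell at 12 h (37.1% of all genes called) and 3 rose and 6 fell at 6 h (34.0%). The change with LBH589 differed between tumours for 4 of the 14, Atoh1 among them (limma F-test adjusted p = 3.6e-05), against 4.35% of all genes. In these bulk samples fewer cells of a type and less RNA per cell cannot be told apart.

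Promoter windows of Plagl1, Grb10 and Mest are shown because Plagl1 and Grb10 had the largest changes of the 9 genes and Mest was lower with LBH589 in each tumour. They are RefSeq sequences of build GRCm38.p6, from 250 bases before to 50 after an annotated start, on the gene's own strand. Capitals mark TGCCGC or its reverse complement GCGGCA, the hexamer bound by the imprint-keeping protein ZFP57, searched on both strands. The Plagl1 window is chr10:13090582-13090881 on the plus strand and holds 26 CpG and 1 copy. The Grb10 window shown, of 2 listed, is chr11:12037371-12037670 on the minus strand and holds 45 CpG and 1 copy. The Mest window shown, of 3, is chr6:30737800-30738099 on the plus strand and holds 17 CpG and 2 copies.
Plagl1: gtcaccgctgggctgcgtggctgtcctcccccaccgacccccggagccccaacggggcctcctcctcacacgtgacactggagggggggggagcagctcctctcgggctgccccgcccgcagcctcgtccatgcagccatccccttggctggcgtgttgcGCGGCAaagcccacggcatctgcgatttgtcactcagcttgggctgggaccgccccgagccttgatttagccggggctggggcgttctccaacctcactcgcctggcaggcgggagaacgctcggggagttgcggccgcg
Grb10: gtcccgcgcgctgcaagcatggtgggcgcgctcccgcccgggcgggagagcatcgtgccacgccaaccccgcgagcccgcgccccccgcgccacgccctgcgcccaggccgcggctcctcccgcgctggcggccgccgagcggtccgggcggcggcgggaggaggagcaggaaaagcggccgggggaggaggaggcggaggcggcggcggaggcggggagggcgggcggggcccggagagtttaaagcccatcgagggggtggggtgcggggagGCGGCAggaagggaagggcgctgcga
Mest: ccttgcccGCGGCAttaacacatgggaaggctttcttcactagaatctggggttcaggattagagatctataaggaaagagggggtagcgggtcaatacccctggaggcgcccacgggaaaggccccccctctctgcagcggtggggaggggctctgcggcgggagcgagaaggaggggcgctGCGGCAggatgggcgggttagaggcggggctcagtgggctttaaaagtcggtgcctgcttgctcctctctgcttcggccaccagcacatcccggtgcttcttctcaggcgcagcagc
The hexamer was present in 5 of the 14 windows of the 8 matched genes, which belong to Igf2, Mest, Plagl1 and Grb10. Of these 5, 2 are nearly the same stretch of Mest, from starts 3 bases apart. The third Mest window, the other Grb10 window and 3 of the 4 Igf2 windows held 0 copies. For Grb10 and Mest a window with the hexamer was shown. Phlda2 and Magel2 also kept their direction with LBH589 in each tumour, and their windows, with 0 copies, are not shown. Of all 32851 promoter windows 11.6% held it and 1.53% held at least 2 copies, and the median window had 7 CpG. A match of letters is a description and not a binding site.

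Plagl1 had the lowest adjusted p of the 9 genes at both times when tumours were not blocked (Grb10 had it with the block), and it was higher with LBH589 in every tumour at both times. Phlda2 was also higher in every LBH589 array than in any DMSO array. Magel2 and Peg3 were higher, and Grb10 lower, over both times. Mest was lower in every tumour, and Igf2, Peg10 and Ndn passed no test for the drug. Calls were made in limma at 0.05 after Benjamini-Hochberg adjustment over the 18652 genes. At 12 h 2 of the 9 were called, both higher, where 18.2% of all tested genes were called. At 6 h 1 of 9 was called, against 15.8% of all. Over both times 5 of 9 were called, 4 higher and 1 lower, against 30.1% of all. With the tumour as a replicate block, which compares the arrays within each tumour, 5 were called at 12 h (37.1% of all genes) and 5 at 6 h (34.0%), each time 3 higher and 2 lower, and 6 over both times (45.9%). The median change of the 9 was 0.22 at 12 h and 0.058 at 6 h, where that of all tested genes was 0.0057 and -0.020.

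**Figure D1:**
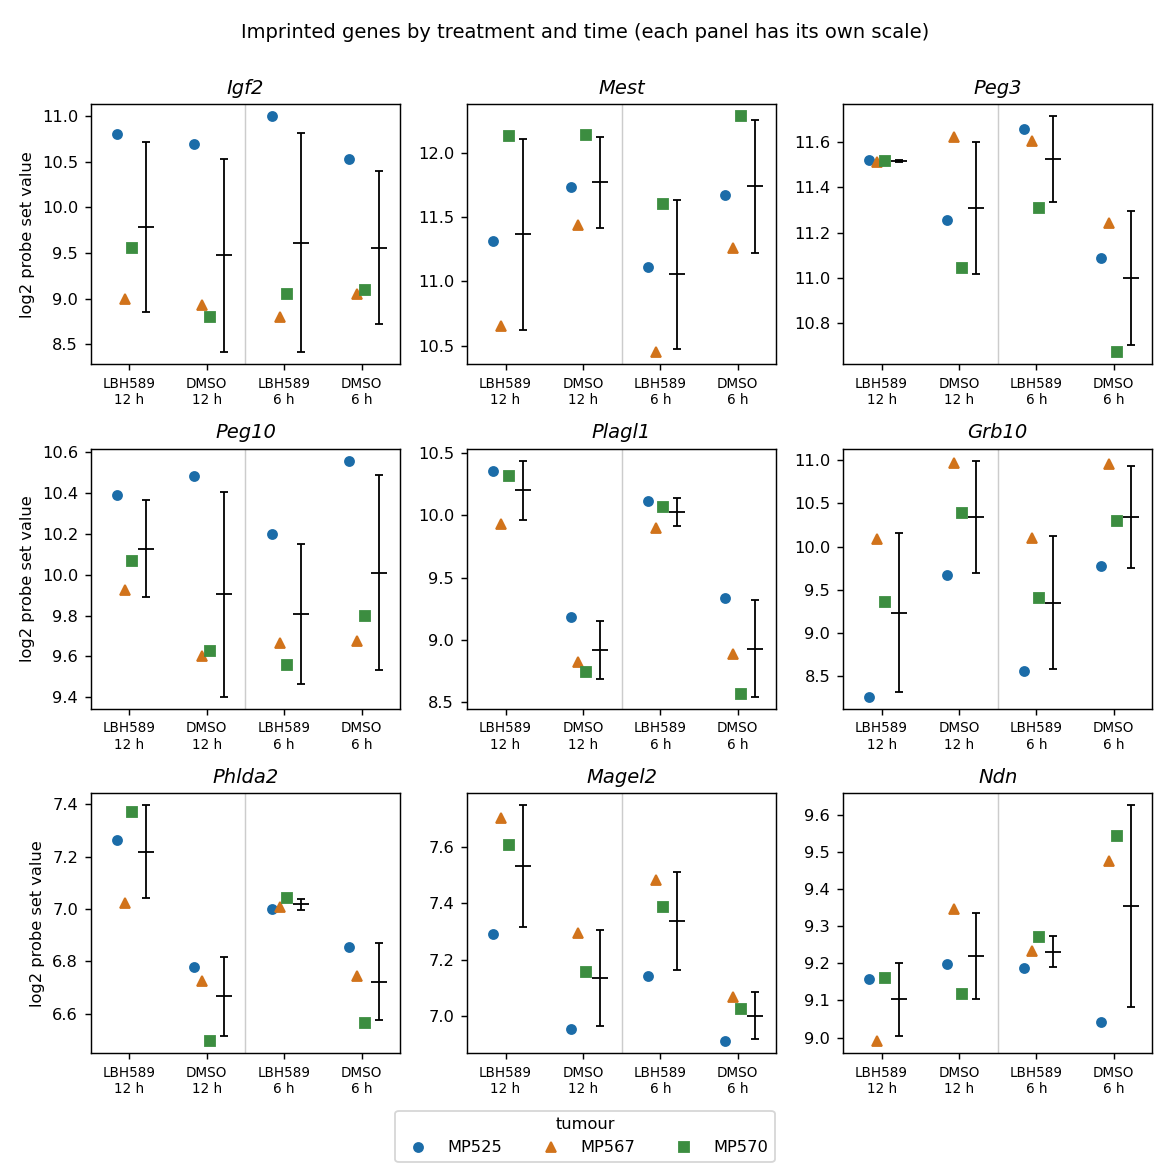
Log2 probe set value (vertical axis, a scale of its own per gene) of 9 imprinted genes in LBH589 and DMSO at 12 h and at 6 h; each point is 1 array, its marker the tumour, and the bar to its right is the mean ± SD of 3 arrays. Plagl1 and Phlda2 in LBH589 lie above all DMSO arrays, while Igf2 and Peg10 are split by tumour, with MP525 on top in each group.

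Plagl1 encodes a zinc finger transcription factor that, in mice, regulates other imprinted genes. At 12 h it had 10.36, 9.93 and 10.32 in LBH589 cultures of MP525, MP567 and MP570, against 9.19, 8.82 and 8.74 in DMSO cultures. At 6 h it had 10.11, 9.89 and 10.07 in LBH589 and 9.34, 8.89 and 8.57 in DMSO. All 6 LBH589 arrays, at 9.89 to 10.36, lay above all 6 DMSO arrays, at 8.57 to 9.34, a separation that 17.7% of all tested genes showed in either direction. The difference was 1.28 ± 0.20 at 12 h (SE, n = 3 per group), or 2.43-fold, with a limma adjusted p of 0.0013. It was 1.09 ± 0.20 at 6 h, or 2.13-fold, with an adjusted p of 0.0036. Within the tumours it ran from 0.77 in MP525 at 6 h to 1.57 in MP570 at 12 h. Without tumour MP570 the 6 h call was lost (adjusted p = 0.0864), and the 12 h call stayed without any tumour. A second Plagl1 probe set was dim, with a mean of 3.27, and above the 25th percentile on 0 arrays.

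Peg3 encodes a paternally expressed zinc finger protein. At 12 h its level was 11.52, 11.51 and 11.52 in LBH589 cultures of MP525, MP567 and MP570, against 11.26, 11.62 and 11.05 in DMSO cultures. At 6 h it was 11.66, 11.61 and 11.31 in LBH589 and 11.09, 11.24 and 10.67 in DMSO. The 6 h groups did not overlap, while at 12 h MP567 was lower with LBH589 than with DMSO. The change was 0.21 ± 0.17 at 12 h (adjusted p = 0.467, with the block 0.138). At 6 h it was 0.52 ± 0.17, with an adjusted p of 0.057, and 0.0012 with the block. Over both times it was 0.37 ± 0.12, or 1.29-fold (adjusted p = 0.0372). That call was lost without 8 of the 12 arrays in turn (all but the DMSO arrays of MP567, the 6 h DMSO array of MP525 and the 6 h LBH589 array of MP570), with an adjusted p of up to 0.0885, and without 2 of the 3 tumours, with up to 0.237, and with the block the p over both times was 0.00078. Another probe set names both Peg3 and Peg3os, its antisense partner, and was not used.

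Igf2 encodes a fetal growth factor that signals through the IGF1 receptor. Its level at 12 h was 10.80, 8.99 and 9.56 in LBH589 cultures of MP525, MP567 and MP570, against 10.69, 8.93 and 8.80 in DMSO cultures. The 6 h values were 11.00, 8.80 and 9.05 in LBH589 and 10.52, 9.05 and 9.10 in DMSO. MP525 was high in every group, and the treatments overlapped. The change was 0.31 ± 0.69 at 12 h (adjusted p = 0.822, with the block 0.108) and 0.058 ± 0.69 at 6 h (0.975, with the block 0.816). At 12 h the difference was 0.76 in MP570 and 0.11 and 0.064 in MP525 and MP567.

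Grb10 encodes an adaptor protein that binds the insulin and IGF1 receptors and dampens their signal. At 12 h it had 8.25, 10.09 and 9.36 in LBH589 cultures of MP525, MP567 and MP570, against 9.67, 10.97 and 10.39 in DMSO cultures. At 6 h it had 8.55, 10.09 and 9.40 in LBH589 and 9.77, 10.96 and 10.30 in DMSO. In each tumour the LBH589 cultures were lower, by 1.42, 0.89 and 1.03 at 12 h and by 1.22, 0.86 and 0.90 at 6 h in the same order, and the groups overlapped across tumours. The change was -1.11 ± 0.51 at 12 h, or 2.16-fold lower, with an adjusted p of 0.167 that became 5.3e-06 with the tumour as a block. The 6 h change was -0.99 ± 0.51, or 1.99-fold lower (0.238, with the block 1.5e-05). Over both times it was -1.05 ± 0.36 (0.0463, with the block 1.4e-07). The unblocked call over both times was lost without 8 of the 12 arrays in turn (any of MP570, LBH589 of MP525 and DMSO of MP567), with a p of up to 0.107, without 2 of the 3 tumours, with up to 0.232, and under each of the 3 other scalings. The blocked calls at 12 h and at 6 h stayed without any single array or tumour.

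Phlda2 encodes a small pleckstrin homology domain protein that restrains growth of the mouse placenta. At 12 h it had 7.26, 7.02 and 7.37 in LBH589 cultures of MP525, MP567 and MP570, against 6.78, 6.73 and 6.49 in DMSO cultures. The 6 h values were 7.001, 7.009 and 7.041 in LBH589 and 6.856, 6.746 and 6.564 in DMSO. The LBH589 arrays were above all DMSO arrays at both times, at levels around percentile 35.2 of all genes. The change was 0.55 ± 0.12 at 12 h, or 1.47-fold (adjusted p = 0.0066), and 0.30 ± 0.12 at 6 h (0.112, with the block 0.0644). The 12 h call was lost without 2 of the 3 tumours, with an adjusted p of up to 0.0968. Over both times the change was 0.42 ± 0.082 (0.0021).

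Mest encodes a paternally expressed protein of the alpha/beta hydrolase fold family. At 12 h it had 11.31, 10.65 and 12.13 in LBH589 cultures of MP525, MP567 and MP570, against 11.73, 11.44 and 12.14 in DMSO cultures. The 6 h cultures had 11.11, 10.45 and 11.60 in LBH589 and 11.67, 11.26 and 12.28 in DMSO. Mest was lower with LBH589 in each tumour at 6 h, and at 12 h in MP525 and MP567, with MP570 level at a difference of -0.0094. The change was -0.40 ± 0.39 at 12 h (adjusted p = 0.548, with the block 0.0082) and -0.68 ± 0.39 at 6 h (0.289, with the block 0.00021). The blocked 12 h call was lost without 2 of the 3 tumours, with a p of up to 0.111, and without either 12 h array of MP567, with up to 0.057. Over both times the change was -0.54 ± 0.27 (0.168, with the block 3.6e-05).

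Peg10 is a gene of retrotransposon origin that the mouse placenta needs. At 12 h its level was 10.39, 9.92 and 10.07 in LBH589 cultures of MP525, MP567 and MP570, against 10.48, 9.60 and 9.62 in DMSO cultures. In 6 h cultures it was 10.20, 9.67 and 9.56 in LBH589 and 10.56, 9.67 and 9.80 in DMSO. The groups overlapped at both times. The change was 0.22 ± 0.29 at 12 h (adjusted p = 0.668, with the block 0.117) and -0.20 ± 0.29 at 6 h (0.726, with the block 0.167).

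Magel2 and Ndn encode MAGE family proteins and are paternally expressed neighbours in the region that corresponds to Prader-Willi syndrome in people. Magel2 at 12 h had 7.29, 7.70 and 7.61 in LBH589 cultures of MP525, MP567 and MP570, against 6.95, 7.30 and 7.16 in DMSO cultures. For 6 h the values were 7.14, 7.48 and 7.39 in LBH589 and 6.91, 7.07 and 7.03 in DMSO. It was higher with LBH589 in each tumour at both times, and the groups did not overlap at 6 h. The change was 0.40 ± 0.13 at 12 h (adjusted p = 0.0603, with the block 0.0026) and 0.33 ± 0.13 at 6 h (0.119, with the block 0.0088). Over both times it was 0.37 ± 0.094, or 1.29-fold (0.0115), a call lost without 2 of the 3 tumours, with a p of up to 0.137. The blocked 6 h call was lost without 2 of the 3 tumours, with a p of up to 0.0972, and without the MP567 DMSO array of 6 h, at 0.0569.

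Ndn, which encodes the neuronal growth suppressor necdin, at 12 h had 9.16, 8.99 and 9.16 in LBH589 cultures of MP525, MP567 and MP570, against 9.20, 9.35 and 9.12 in DMSO cultures. The values at 6 h were 9.19, 9.23 and 9.27 in LBH589 and 9.04, 9.47 and 9.54 in DMSO. The groups overlapped. The change was -0.12 ± 0.14 at both times, with adjusted p of 0.638 at 12 h and 0.646 at 6 h and, with the block, 0.491 and 0.488. Ndn varied least of the 9 over the 12 arrays, between 8.99 and 9.54.

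**Figure D2:**
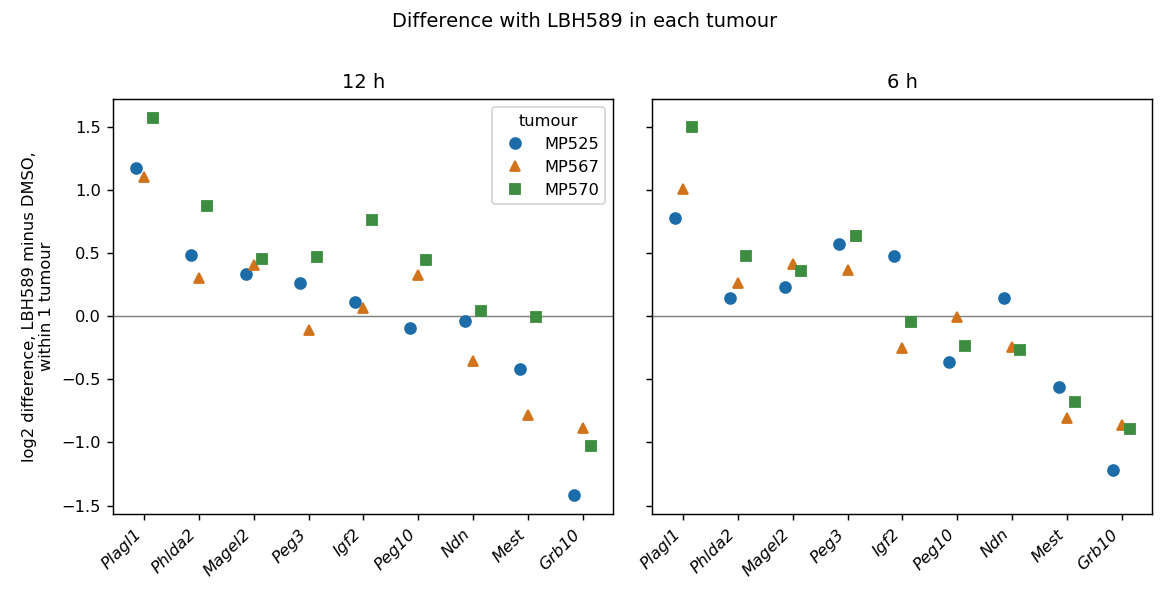
Log2 difference LBH589 minus DMSO (vertical axis) within each tumour at 12 h and at 6 h for the 9 genes; each point is 1 pair of arrays of a tumour and the line marks 0. Plagl1, Phlda2 and Magel2 lie above 0 and Grb10 and Mest below it in all 3 tumours at both times, Mest in MP570 at 12 h by only 0.0094.

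The direction was the same in all 3 tumours for 6 of the 9 genes at 12 h and for 7 at 6 h, where 52.8% and 59.9% of all tested genes were of the same direction. The groups did not overlap for 2 of 9 at 12 h (32.0% of all) and for 4 of 9 at 6 h (32.9%). A test of whether the change differed between tumours called 0 of the 9, where it called 4.35% of all genes. At an unadjusted p under 0.05 it held 5, which were Plagl1, Mest, Peg3, Grb10 and Peg10. The share of all genes at that unadjusted threshold was not counted, so that this number cannot be set against it. Plagl1 came closest, with an adjusted p of 0.0569 and mean changes of 0.97, 1.06 and 1.54 in MP525, MP567 and MP570, and it was called at 0.0276 after quantile normalization and at 0.0455 when only genes above the 50th percentile of at least 3 arrays were tested. It was not called with the other 5 settings, at 0.0695 with no filter, 0.0735 and 0.0932 with arrays centred on reference genes and on their medians, 0.170 without a variance trend and 0.702 with the mean of probe sets.

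None of the 9 genes was called between the times. For 12 h against 6 h, 0 were called in LBH589 and 0 in DMSO, and likewise for the difference between the 12 h and the 6 h effect, in both fits. Of all tested genes 0% were called in LBH589, 0.0214% in DMSO and 0% for the difference of effects, and with the block 1.99%, 0.311% and 0.0107%. At an unadjusted p under 0.05 limma gave 0 of the 9 in each, and with the block 3 in LBH589, 1 in DMSO and 2 for the difference. The shares of all genes at that unadjusted threshold were not counted. In LBH589 cultures the changes with time ran from -0.13 for Ndn to 0.32 for Peg10, and in DMSO cultures from -0.13 for Ndn to 0.31 for Peg3. Ndn was the only one of the 9 whose 12 h and 6 h groups did not overlap, in LBH589, with 8.99 to 9.16 at 12 h and 9.19 to 9.27 at 6 h. Of all genes 12.3% did not overlap between the times in LBH589 and 6.66% in DMSO.

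Tumours differed more than treatments for Igf2, Peg10 and Mest. Grb10 differed strongly by both, with 55.2% of its sum of squares between tumours and 42.7% between treatments. The F-test over the 3 tumours, fitted beside the 4 groups, called 7 of the 9 genes, against 37.4% of all tested genes, the exceptions being Ndn (adjusted p = 0.550) and Phlda2 (0.637). Each tumour is 1 tumour with 4 cultures, so that the test concerns these 3 tumours. Between pairs of tumours 27.3% of all genes were called for MP567 against MP525, 18.8% for MP570 against MP525 and 25.2% for MP567 against MP570. How many of all genes had no overlap between tumours was not counted, so that the separations below cannot be set against it.

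Igf2 averaged 8.94 ± 0.11 in MP567 and 10.75 ± 0.20 in MP525 (SD, n = 4), and the 3.51-fold difference had a limma adjusted p of 4.7e-07. It averaged 9.12 ± 0.32 in MP570, 3.096-fold below MP525 (adjusted p = 2.1e-06). All MP525 arrays, at 10.52 to 11.00, lay above those of both other tumours, at 8.80 to 9.56. Peg10 had the same order, with 9.72 ± 0.14 in MP567 and 10.41 ± 0.16 in MP525 (1.61-fold, adjusted p = 8.3e-05), and 9.76 ± 0.23 in MP570 (1.56-fold below MP525, 0.00034). Its MP525 arrays did not overlap with the others. MP567 and MP570 did not differ past the test in Igf2 (0.342) or Peg10 (0.790). The summed level of the 10 endothelial genes was also highest in MP525, at 11.42 to 11.67, against 11.14 to 11.50 in MP567 and 10.80 to 11.14 in MP570, and 8 of these 10 were called between tumours. The sums of the 12 mesenchymal genes, 9 of them called, were 11.86 to 12.05 in MP525, 11.75 to 12.23 in MP567 and 11.88 to 12.30 in MP570. Those of the 8 astrocyte genes, 7 called, were 11.66 to 12.02, 11.59 to 11.92 and 11.17 to 11.57 in the same order. The sums of the 14 progenitor genes, 7 of them called, were 13.57 to 14.11 in MP525, 13.48 to 13.64 in MP567 and 13.61 to 13.80 in MP570. Genes within a list also differed in order. Of the mesenchymal genes, Twist1 averaged 9.23 in MP525, 7.85 in MP567 and 7.70 in MP570, and Dcn 7.24, 8.93 and 9.14. The part of such cells in the tumour differences was not tested.

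Grb10 ran the other way. It averaged 10.53 ± 0.51 in MP567, 9.86 ± 0.56 in MP570 and 9.06 ± 0.77 in MP525, and MP567 was 2.76-fold above MP525 (adjusted p = 3.8e-07) and 1.59-fold above MP570 (0.00018). The arrays of MP567 and MP525 did not overlap although each holds both treatments. Mest had another order, with 10.95 ± 0.47 in MP567 and 12.04 ± 0.30 in MP570 (2.13-fold lower in MP567, adjusted p = 1.7e-06), and 11.46 ± 0.30 in MP525. The summed level of the 8 mature neuron genes followed the order of Mest, at 12.31 to 12.68 in MP567, 13.16 to 13.39 in MP525 and 13.50 to 13.63 in MP570, with 5 of 7 tested called. Each of these genes but Gad1 and Gabra6 had this order of means. The sum of the 7 oligodendrocyte genes, 4 of them called, had the same order. It was 10.37 to 10.72 in MP567, 10.76 to 11.02 in MP525 and 10.84 to 11.15 in MP570, with MP525 and MP570 overlapping. The part of such cells in the order of Mest was not tested.

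The tumour differences of Peg3, Magel2 and Plagl1 were smaller and were lost without single arrays. The F-test gave adjusted p of 0.0146 for Peg3, 0.0132 for Magel2 and 0.0351 for Plagl1. Leaving out 1 array at a time lost the call with 3 of the 4 MP570 arrays for Peg3 (up to 0.0734, without the 6 h DMSO array), with the 6 h LBH589 array of MP525 for Magel2 (0.0558) and with 6 of the 12 arrays for Plagl1 (up to 0.185, without the 6 h DMSO array of MP525). Peg3 was 1.28-fold higher in MP567 than in MP570 (adjusted p = 0.0085), Magel2 1.24-fold higher in MP567 than in MP525 (0.0072), and Plagl1 1.29-fold lower in MP567 than in MP525 (0.0276).

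As shares of a gene's sum of squares over the 12 arrays, tumour took 94.6% in Igf2, 80.5% in Peg10, 66.4% in Mest and 55.2% in Grb10. Treatment took 87.7% in Plagl1, 71.2% in Phlda2, 56.5% in Magel2, 42.7% in Grb10 and 41.9% in Peg3. Time took at most 17.6%, in Ndn. Tumour has more levels than treatment or time, which raises its share. The medians over all tested genes were 22.8% for tumour, 20.7% for treatment and 3.48% for time.

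**Figure D3:**
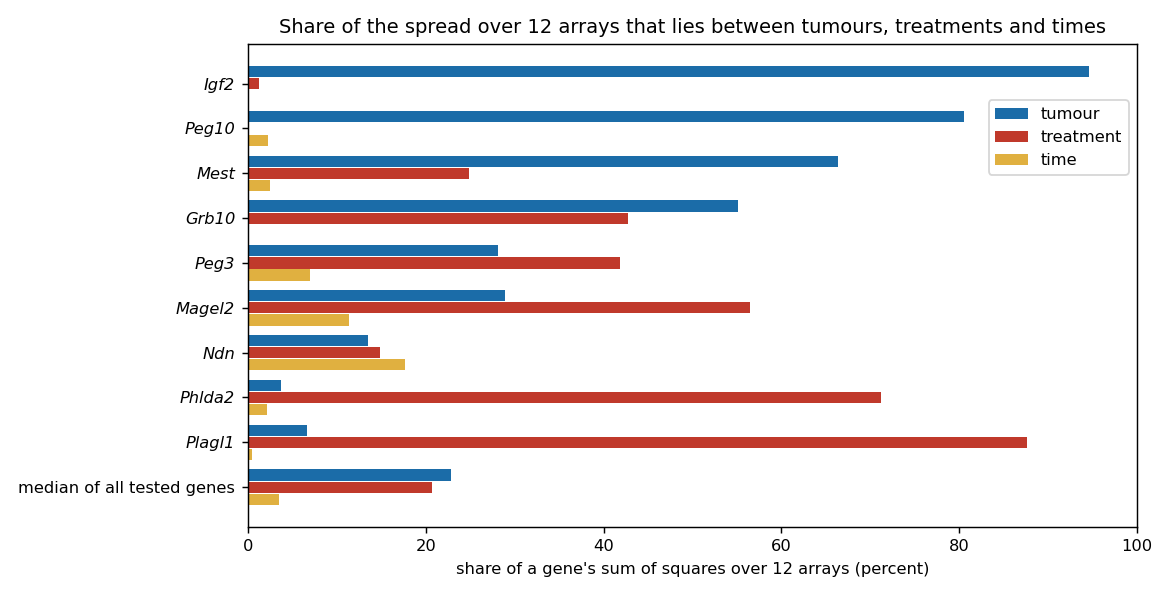
Share of each gene's sum of squares over 12 arrays (horizontal axis, percent) that lies between tumours, treatments and times, for the 9 genes and as the median of all tested genes. Tumour leads in Igf2 at 94.6% and treatment in Plagl1 at 87.7%.

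Lists of other imprinted genes, of IGF signalling and of imprint control were read beside the 9. Of 54 other imprinted genes 46 were tested. At 12 h 6 rose and 2 fell, and at 6 h 4 rose and 4 fell, where of all genes 9.13% were called higher and 9.07% lower at 12 h, and 8.49% and 7.31% at 6 h. In the blocked fit, which called 37.1% and 34.0% of all genes, 9 rose and 8 fell at 12 h, and 9 rose and 7 fell at 6 h. The median change of the 46 was 0.014 at 12 h and -0.033 at 6 h.

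Igf2r, which clears IGF2 from outside the cell, rose at both times. At 12 h it had 10.06, 10.13 and 10.22 in LBH589 cultures of MP525, MP567 and MP570, against 8.97, 9.36 and 9.10 in DMSO cultures. Its change was 0.99 ± 0.15 at 12 h (1.99-fold, adjusted p = 0.00097) and 1.12 ± 0.15 at 6 h (2.17-fold, 0.00062). Both calls stayed without any single array or tumour. Airn, the antisense RNA that can silence Igf2r on the paternal copy, was not called, with 0.27 ± 0.16 at 12 h (0.292) and 0.049 ± 0.16 at 6 h (0.898).

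Cdkn1c, the maternally expressed CDK inhibitor p57, rose 2.07-fold at 12 h (1.05 ± 0.19, adjusted p = 0.0028). At 6 h its change was 0.51 ± 0.19 (0.0951, with the block 0.0036). Its neighbour transcript Kcnq1ot1 was not called, with -0.12 ± 0.23 at 12 h (0.789) and 0.21 ± 0.23 at 6 h (0.638). Without MP570 as a whole the 12 h call of Cdkn1c was at 0.0582. Phlda2 and Cd81 lie in the same imprinted domain as Cdkn1c, and Cd81, a tetraspanin, rose by 0.54 ± 0.12 at 12 h (0.0084) and by 0.44 ± 0.12 at 6 h (0.0257, lost without 4 of the 12 arrays, with up to 0.0991).

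Ppp1r9a, an actin-binding neuronal protein next to Peg10, was 2.08-fold lower at 12 h (-1.05 ± 0.15, adjusted p = 0.00088) and 1.99-fold lower at 6 h (0.0015). Sgce, a sarcoglycan that shares a start region with Peg10, was called only with the block, with -1.01 ± 0.35 at 12 h (0.0699, block 9.9e-06) and -0.92 ± 0.35 at 6 h (0.106, block 2.3e-05), while Peg10 itself was not called in either fit. Ube3a, the ubiquitin ligase that neurons express from the maternal copy, fell by 0.83 at 12 h (0.0019) and by 0.60 at 6 h (0.0131), the 6 h call being lost without 2 of the 3 tumours (up to 0.125). Blcap rose by 0.48 at 12 h (0.0073) and by 0.58 at 6 h (0.0031), and without 2 of the 3 tumours both calls were lost, with up to 0.0974 and 0.0637. Usp29, which shares a start region with Peg3, was called only with the block at 6 h (0.45 ± 0.17, 0.104, block 0.0081), and at 12 h its change was 0.15 ± 0.17 (0.631, block 0.371). Gnas and Nnat were not called, with -0.10 and 0.22 at 12 h and -0.12 and 0.32 at 6 h. Nnat was the 1 of the 46 whose change differed between tumours (adjusted p = 0.0281). In the Dlk1-Dio3 cluster 1 of 5 tested genes, the noncoding Rian, was called, 6.24-fold higher at 12 h (2.64 ± 0.60, adjusted p = 0.010). Of all tested genes 18.2% were called at 12 h.

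Of 25 genes of IGF signalling 22 were tested, Igf2r again among them. At 12 h 4 rose and 1 fell, and at 6 h 4 rose and 2 fell. Of all tested genes 18.2% were called at 12 h and 15.8% at 6 h. With the block 8 rose and 6 fell at 12 h (37.1% of all genes called), and 5 rose and 4 fell at 6 h (34.0%). The median change was 0.11 at 12 h and 0.032 at 6 h. The change differed between tumours for 4 of the 22, against 4.35% of all genes. These were Irs4, Htra1, Igfbp5 and Igfbp2 (F-test adjusted p = 0.0102, 0.0163, 0.0227 and 0.0290). Htra1, a secreted protease that cuts IGF binding proteins, rose 2.57-fold at 12 h (1.36 ± 0.22, adjusted p = 0.0016) and 2.06-fold at 6 h (0.0085, lost without 2 of the 3 tumours, with up to 0.0909). Irs2, a docking protein of the receptors, rose by 0.76 at 12 h (0.0105) and by 0.58 at 6 h (0.0404), and the 6 h call was lost without 7 of the 12 arrays (up to 0.140). Nedd4, a ubiquitin ligase that binds GRB10, fell by 0.68 at 12 h (0.0021) and by 0.40 at 6 h (0.0363, lost without 4 of the 12 arrays, up to 0.135). Igfbp5, a binding protein of IGF2, had a change of -0.84 at 12 h (0.0619, with the block 0.0016) and fell by 0.93 at 6 h (0.0467, lost without 9 of the 12 arrays, up to 0.164). Igf1r, the signalling receptor, had 0.017 ± 0.14 at 12 h (0.958) and 0.44 ± 0.14 at 6 h (0.049, lost without 10 of the 12 arrays, up to 0.165). Another scaling of the arrays also ended the 6 h calls of Irs2, Nedd4, Igfbp5 and Igf1r, with adjusted p of up to 0.0653, 0.0930, 0.0502 and 0.0722.

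Of 29 genes that set, keep or read methylation imprints 27 were tested. At 12 h 1 rose and 8 fell, and at 6 h 3 rose and 4 fell. Of all tested genes 18.2% were called at 12 h and 15.8% at 6 h. With the block 2 rose and 16 fell at 12 h (37.1% of all genes called), and 3 rose and 9 fell at 6 h (34.0%). The median change was -0.29 at 12 h and -0.17 at 6 h. Ctcf, the insulator protein that binds the unmethylated control region between Igf2 and H19, had 9.72, 9.86 and 9.80 in LBH589 cultures of MP525, MP567 and MP570 at 12 h, against 10.90, 10.91 and 10.65 in DMSO cultures. It fell by 1.03 ± 0.12 at 12 h (2.04-fold lower, adjusted p = 0.00029) and by 1.15 ± 0.12 at 6 h (2.22-fold lower, 0.00018), calls that stayed without any single array or tumour.

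Mbd3, a subunit of a deacetylase complex, fell by 0.87 at 12 h (adjusted p = 0.0188) and by 1.08 at 6 h (0.0073). It was the 1 of the 27 whose change differed between tumours (F-test adjusted p = 0.0479), against 4.35% of all genes. The Mbd3 call at 12 h was lost without 3 of the 12 arrays (up to 0.0702, without the LBH589 array of MP525). Hells and Tet2, a chromatin remodeller and an enzyme that oxidises methylcytosine, fell at 12 h by 0.72 (0.0074) and 0.69 (0.0207), the Tet2 call being lost without 3 of 12 arrays (up to 0.0818, without the LBH589 array of MP570). Kdm1b, a histone demethylase needed for maternal imprints in the mouse oocyte, rose by 0.61 at 12 h (0.0141, lost without 2 of the 12 arrays, up to 0.0582 without the DMSO array of MP525) and by 0.94 at 6 h (0.0017). Arid4a, a retinoblastoma-binding protein, had a change of 0.18 at 12 h (0.465) and rose by 0.79 at 6 h (0.0043). Zfp57, named here after its values were seen since its protein binds the hexamer shown in the promoters, fell by 0.65 ± 0.13 at 12 h (0.0060) and by 0.76 ± 0.13 at 6 h (0.0030). Without 2 of the 3 tumours its 12 h call was lost, with up to 0.069, and without 1 of them the 6 h call, at 0.0639. Of the named genes of the 3 lists, the calls of Igf2r, Ppp1r9a and Ctcf at both times and those of Ube3a, Htra1 and Nedd4 at 12 h stayed without any tumour, and the other calls were lost without at least 1 of the 3.

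**Figure D4:**
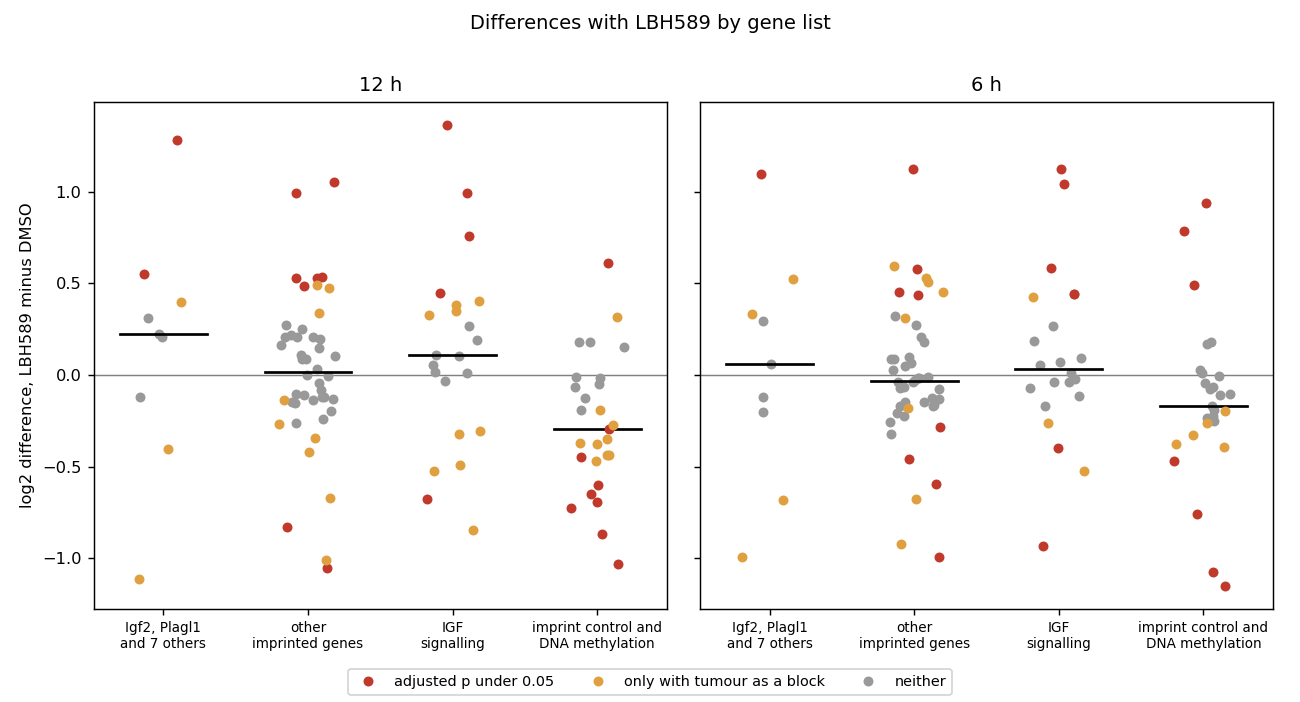
Log2 difference LBH589 minus DMSO (vertical axis) at 12 h and at 6 h for the 9 imprinted genes and 3 lists; each point is 1 gene, red where called in the unblocked fit, orange where only the blocked fit called it, grey otherwise, and the black line is the list's median. The imprint control list has the lowest median at both times, -0.29 at 12 h and -0.17 at 6 h.

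The microRNA genes Mir335, within Mest, and Mir483, within Igf2, have probe sets of their own on the array. Their mature sequences are shown from RefSeq (GRCm38.p6) to identify them, 5′ to 3′, with the seed, bases 2 to 8, in capitals. The seeds of the 4 differ.
mmu-miR-335-5p: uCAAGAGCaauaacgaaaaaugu
mmu-miR-335-3p: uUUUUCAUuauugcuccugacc
mmu-miR-483-5p: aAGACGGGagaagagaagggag
mmu-miR-483-3p: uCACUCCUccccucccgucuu
The Mir335 probe set changed by -0.0055 ± 0.25 at 12 h (adjusted p = 0.993) and by 0.41 ± 0.25 at 6 h (0.340, with the block 0.0731), and that of Mir483 by 0.21 ± 0.16 (0.420) and 0.13 ± 0.16 (0.678). Over the 12 arrays Pearson's r was 0.19 between Mir335 and Mest and 0.38 between Mir483 and Igf2. Between tumours Mir335 averaged 5.38, 5.64 and 5.97 in MP525, MP567 and MP570. Its MP525 and MP567 arrays, at up to 5.72, lay below the 25th percentile of every array, the lowest of which was 5.94. Mir335 thus passed the filter only through MP570, the tumour where it was highest. Its F-test between tumours (adjusted p = 0.0152) is therefore no support for a difference. Mir483 was not called between tumours (0.453). Mir335 lay at the 13.6th percentile of all genes.

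The 3 genes whose values were most like each member's over the 12 arrays were found by Pearson's r among the tested genes. The points share arrays, tumours and treatments, so that r is a description. For Plagl1 they were Wwc2 (0.98), Tex15 (0.98) and Lama5 (0.97), and for Phlda2 Mapk4 (0.95), Wif1 (0.95) and Fam131c (0.95). For Magel2 they were Scrn1 (0.97), Plekhg2 (0.97) and Epn1 (0.95), and for Peg3 Gna13 (0.95), Tmem177 (0.92) and Fat1 (0.91). These 12 had changes above 0 at both times, of 0.086 for Gna13 at 12 h to 1.60 for Tex15 at 12 h. For Grb10 they were BC052040 (0.99), Rtel1 (0.98) and Myo19 (0.98), and for Mest St7l (0.97), Fbxw5 (0.97) and Mtfp1 (0.96), all 6 with changes below 0 at both times. For Igf2 they were 9630028B13Rik (0.97), Actrt3 (0.96) and Gm20741 (0.95), and for Peg10 Dlx6 (0.98), Il6ra (0.95) and Ccbe1 (0.95), all 6 with their highest tumour mean in MP525. Dlx6 and Peg10 are both on chromosome 6 in RefSeq. For Ndn they were Rheb (0.87), Ilf2 (0.86) and Sec62 (0.86), with lower r than for the other 8 and changes between -0.22 and -0.090. Among the 36 pairs of the 9 genes the highest r were 0.95 for Plagl1 with Phlda2 and 0.90 for Igf2 with Peg10, and the lowest were -0.78 for Plagl1 with Grb10 and -0.75 for Igf2 with Grb10.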

How the data were processed

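Each of 12 cultures gave total RNA for 1 Affymetrix Mouse Gene 2.0 ST array, with biotin-labelled whole-transcript cDNA, per the labels' protocols. The deposited values are log2 expression values per probe set, between 1.50 and 14.5. The submitters' processing notes name Agilent Feature Extraction 10.7.3.1, which reads Agilent arrays. The summary and normalization by the authors are not given in the sources used. Array medians lay between 7.10 and 7.21, and no further normalization was applied. Precision is limited by the number of arrays.

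Of 41345 probe sets, 23521 named 1 gene in the array annotation, 1814 named several and were not used, and 16010 were not listed. Names were updated through RefSeq by gene number for 23328, and 193 kept their own symbol. The brightest probe set stood for each of 22180 genes. Genes above the array's 25th percentile on at least 3 of the 12 arrays were tested, which kept 18652.

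The 4 group means were fitted over all 12 arrays with limma 3.58.1 in R 4.3.3 (lmFit, then eBayes with its trend option, on 8 residual degrees of freedom), with two-sided p-values, Benjamini-Hochberg adjustment over the 18652 genes and calls under 0.05. The fit with the tumour as a replicate block had 6 residual degrees of freedom and the test of tumour by treatment 4. The tumour name pairs the arrays: after removing group means, the 18 same-tumour pairs correlated at 0.45 to 0.80, other pairs at -0.51 to -0.058, and 12 of 12 arrays correlated best with their own tumour. The labels do not say whether the 4 cultures of a tumour came from separate animals, and p-values for tumours measure the spread between these cultures, which may be technical.

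The genes and lists were chosen with earlier results of these data known. Text names the 10 members, for each the 3 genes of highest Pearson's r, up to 4 called genes of largest change per list and comparison, and 11 further imprinted or IGF genes. Comparisons that share arrays are not independent. Alternatives were the block (fixed or random), 3 other scalings, 2 other filters, averaged probe sets per gene, eBayes without the trend, and leaving out each array or tumour. The fits were tested on simulated data. No gene coordinates beyond those of printed RefSeq sequences are given, since the sources used here do not name the annotation's genome build.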

Additional observations from a re-analysis of the deposited data

Results flagged for a closer look

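Peg10 and Phlda2 moved in opposite directions with time in LBH589 and in DMSO cultures in every tumour. Peg10 was higher at 12 h than at 6 h by 0.32 in LBH589 and lower by 0.11 in DMSO (log2 changes of 0.32 and -0.11), and the effects differed by 0.427. Phlda2 changed with time by 0.20 in LBH589 and by -0.056 in DMSO, and the effects differed by 0.258. In MP567 Phlda2 hardly moved, by 0.015 in LBH589 and -0.020 in DMSO. The share of all genes with such opposite directions was not counted. In the limma test of this difference the adjusted p was 0.9998 for both, and with the tumour as a block 0.403 for Peg10 and 0.663 for Phlda2, so that neither difference passed the test.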

How the results depend on the processing

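The tumour as a fixed replicate block raised the number of the 9 genes called to 5 at 12 h (unblocked 2) and to 5 at 6 h (unblocked 1), and as a random replicate block to 4 and 6. It ended no call of a member, and the calls it added stand beside each gene. At 6 h the count was 2 after centring on reference genes and 2 when only genes above the 50th percentile were tested. The change differed between tumours for 1 gene, Plagl1, after quantile normalization and for 1 with the 50th percentile filter, in place of 0. Leaving out 1 array or 1 tumour gave 1 to 3 calls at 12 h, 0 to 2 at 6 h and 2 to 5 over both times. In the blocked fit it gave 5 to 6, 4 to 6 and 6 to 7, and leaving out arrays or tumours there was added after seeing the data. The counts were 5 to 7 between tumours, and 0 to 0 with time or for the difference of effects in the unblocked fit. Grb10 over both times lost its unblocked call after quantile normalization, after centring on medians or on reference genes and with no filter, and Plagl1's tumour difference after both centrings and with the mean of its probe sets (adjusted p = 0.0655, 0.0653 and 0.0763). Of 1695 comparisons of a member's change with its value under an alternative 99 turned sign, none of them a called change. Centring on reference genes moved the median of all genes to 0.086 at 12 h and 0.026 at 6 h. The reference genes were not all unmoved by LBH589. Of the 9 tested 3 were called at 12 h and 1 at 6 h, all lower, against 18.2% and 15.8% of all genes. With the block 5 and 2 were called, against 37.1% and 34.0%. Magel2 and Phlda2 lay at percentiles 42.9 and 35.2 of all genes, where probe sets are dim.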
